A study of Mus musculus with 477 samples.

Results

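The milk fat of the mouse is built from fatty acids that the luminal cells take up from blood and from fatty acids they make themselves. The 7 genes described here serve those steps, and they were chosen by name: *Cd36*, *Fabp3*, *Lpl*, *Acsl1*, *Thrsp*, *Olah* and *Cel*, of 21004 genes in the count table. All 7 (*Acsl1* in another spelling) also stand in a list of luminal genes that the study picked by fold change against tumors, partly on these same cells, so their lower level in tumors is a description and not independent evidence. Lipoprotein lipase (*Lpl*) releases fatty acids from circulating triglyceride, the membrane protein *Cd36* carries them into the cell, the cytosolic binding protein *Fabp3* holds them, and the ligase *Acsl1* activates them with coenzyme A. *Thrsp* (Spot 14) is a regulator of fatty acid synthesis in the lactating gland. *Olah* is the thioesterase that ends synthesis early and so gives the medium-chain fatty acids typical of rodent milk. *Cel* is the bile salt-dependent lipase, known from the pancreas and secreted into milk, where it helps the newborn to digest milk fat.

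The levels came from 312 luminal and 165 tumor cells, each sequenced alone, of 11 female mice on a mixed C57BL/6 and 129/Sv background, captured on Fluidigm C1 chips. Every strain carried MMTV-Cre, which acts in mammary epithelium among other tissues, and the ROSA mT/mG reporter. The luminal cells were sorted as DAPI- CD24Hi CD29Lo mGFP+, so they had active Cre, from the fourth pair of glands at 3 to 4 months of age. Br stands for Brca1 fl/fl, 53 for Trp53 fl/+, and Br53 for both together, so the 53 mice, which keep *Brca1*, are not wild type. The study's methods give Trp53 fl/+, while its legend on flow cytometry of mammary cells gives Trp53 fl/fl for the 53 and Br53 genotypes. Virgin mice were vBrL (35 cells), vBr53L (39) and v53L (40), and mice at day 12.5 of pregnancy were pBrL-1 (71), pBrL-2 (38), pBr53L (53) and p53L (36). The tumors were BrT1 (47 cells), BrT2 (37), Br53T1 (30) and Br53T2 (51), taken at about 1 cm as DAPI- CD24+ cells. The labels give no age for the 4 tumor mice. By the study's account tumors of the Br model arise late and the Trp53 allele brings them forward, so age and tumor cannot be told apart. Apart from pBrL, each group was 1 mouse, so the spread between mice of a group could not be separated from the group itself.

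Depth ranged from 40.3 M to 116 M reads per mouse and from 170209 to 3550564 reads per cell. The level of a gene in a mouse is its summed count divided by the summed count of all genes and scaled to CPM (counts per 1e+06), which depends on gene length because the cDNA was full length. The luminal markers *Krt8* and *Krt18* were read in all 11 mice, at 1148 CPM or more for *Krt8* in luminal mice. BrT1 stood apart from the other tumors, with *Epcam* at 19.2 CPM, *Krt19* and *Cdh1* at 0 and the fibroblast marker *Dcn* at 4356 CPM, so the tumor shares, read ratios and tests are also given without it. The share of casein reads was 3.48% to 17.4% in luminal mice, against 0.379% or less in the tumors.

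In GENCODE vM21 on GRCm38, the assembly also called mm10, the genes are all protein coding. *Cd36* is on chromosome 5 (17781690 to 17888801, minus strand), *Fabp3* on chromosome 4 (130308595 to 130315463, plus), and *Lpl* on chromosome 8 (68880491 to 68907448, plus). *Acsl1* is also on chromosome 8 (46471037 to 46536051, plus), and *Thrsp* is on chromosome 7 (97412938 to 97417730, minus). *Olah* (3341982 to 3397210, minus) and *Cel* (28555795 to 28563403, minus) are both on chromosome 2. Exons of *Fabp3* overlap those of *Zcchc17* and *Gm10570* on the opposite strand, and exons of *Acsl1* overlap *Gm45244*. The use of strand in counting was not stated, so reads of these partners cannot be told apart from those of *Fabp3* and *Acsl1*.

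The promoters of 4 of the genes are shown because their levels take different courses. Levels of *Cd36*, *Fabp3* and *Thrsp* were highest in pregnancy, while *Cel* was as high in virgin mice. Each line gives the 250 bases before a RefSeq transcript start on GRCm38.p6, 5′ to 3′ on the strand of the gene. Capitals mark AGGTCA, the half-site bound by many nuclear receptors, and the GC box GGGCGG, on either strand.
Cd36, chr5:17835897-17836146, minus strand: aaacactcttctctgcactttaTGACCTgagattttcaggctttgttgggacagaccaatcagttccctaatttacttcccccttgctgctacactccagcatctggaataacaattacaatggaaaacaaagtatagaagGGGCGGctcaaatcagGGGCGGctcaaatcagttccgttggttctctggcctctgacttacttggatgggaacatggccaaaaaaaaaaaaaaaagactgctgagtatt
Fabp3, chr4:130308488-130308737, plus strand: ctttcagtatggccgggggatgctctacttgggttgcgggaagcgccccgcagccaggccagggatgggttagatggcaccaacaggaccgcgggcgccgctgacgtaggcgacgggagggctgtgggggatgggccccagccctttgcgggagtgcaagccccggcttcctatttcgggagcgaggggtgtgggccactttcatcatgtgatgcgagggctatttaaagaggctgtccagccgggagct
Thrsp, chr7:97417551-97417800, minus strand: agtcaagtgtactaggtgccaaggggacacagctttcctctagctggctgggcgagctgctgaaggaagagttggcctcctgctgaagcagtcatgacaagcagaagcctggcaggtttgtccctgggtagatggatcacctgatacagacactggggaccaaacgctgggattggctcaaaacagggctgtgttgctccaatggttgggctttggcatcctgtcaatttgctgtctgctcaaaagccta
Cel, chr2:28563404-28563653, minus strand: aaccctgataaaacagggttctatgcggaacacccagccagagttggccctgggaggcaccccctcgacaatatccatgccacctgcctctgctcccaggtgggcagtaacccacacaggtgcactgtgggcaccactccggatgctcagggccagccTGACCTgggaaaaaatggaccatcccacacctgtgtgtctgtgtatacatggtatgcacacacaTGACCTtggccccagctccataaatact

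The window of *Cd36* lies within the span that GENCODE gives the gene, those of *Fabp3* and *Thrsp* overlap its edge, and that of *Cel* ends beside it. All sequences were searched on both strands. *Cel* held 2 matches to the half-site, beginning 92 and 28 bases before the start, and *Cd36* held 1, 228 bases before it. Among 32851 mouse windows of this length 14% held AGGTCA. *Cd36* also held 2 GC boxes, the nearer one 93 bases before the start, and the windows of *Fabp3* and *Thrsp* held neither sequence. Counting the further windows of *Acsl1* (2) and *Olah*, 2 of 7 windows of these genes held the half-site and 2 held a GC box, against 32.7% of all windows. TTGGC, an NFI half-site, was in 4 of 7 windows and in 41.5% of all. At 23 bases before the start of *Cel*, a TTGGC shares its first base with the half-site. The paired STAT site TTCNNNGAA was in 0 of 7 windows and 7.02% of all. The TATA box TATAAA (12.4% of all), CACGTG (6.02%), CCGGAAG (6.91%) and the NFI palindrome with its 5-base spacer (0.0365%) were also in 0 of 7. These are letters in a short window and say nothing about binding.

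Fatty acid uptake was examined first. *Cd36* stood at 1763 CPM in pBrL-1, 1057 in pBrL-2, 1314 in pBr53L and 1788 in p53L. In virgin mice it stood at 0.471 CPM in v53L, 7.31 in vBr53L and 72.7 in vBrL. In tumors it stood at 0.0773 CPM in BrT1, from 7 reads of 1 cell, and at 0 in BrT2, Br53T1 and Br53T2. The 3 sets of mice did not overlap, with pregnancy on top and tumors at the bottom.

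*Fabp3* had the same order of groups. Its level was 766 CPM in pBrL-1, 438 in pBrL-2, 685 in pBr53L and 1007 in p53L. In virgin mice it was 5.75 CPM in v53L, 57.2 in vBr53L and 1.07 in vBrL. It was 0.661 CPM in Br53T2, 0 in Br53T1, 0.0200 in BrT2 and 0.132 in BrT1. The virgin mice ranked differently for the 2 genes, since vBrL was the highest of them for *Cd36* and the lowest for *Fabp3*.

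*Lpl* and *Acsl1* kept a clear level in virgin mice. *Lpl* was at 629 CPM in pBrL-1, 360 in pBrL-2, 373 in pBr53L and 663 in p53L, against 42.1 in v53L, 58.5 in vBr53L and 45.4 in vBrL. The virgin mice were thus close to each other, with a mean of 48.7 ± 8.68 CPM (SD, n = 3). *Lpl* was at 6.13 CPM in Br53T2, 0 in Br53T1, 2.36 in BrT2 and 2.12 in BrT1. *Acsl1* was at 821 CPM in pBrL-1, 574 in pBrL-2, 557 in pBr53L and 806 in p53L. It was at 77.1 CPM in v53L, 82.7 in vBr53L and 159 in vBrL. Its tumor levels of 12.5 CPM in Br53T2, 35.6 in Br53T1, 1.44 in BrT2 and 17.8 in BrT1 lay below every luminal mouse.

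Of the genes of medium-chain synthesis, *Thrsp* was at 1352 CPM in pBrL-1, 960 in pBrL-2, 1027 in pBr53L and 1470 in p53L. Its virgin levels were the most spread of the set in CPM, with 0.347 in v53L, 94.9 in vBr53L and 474 in vBrL. In tumors it was at 4.93 CPM in Br53T2, 50.7 in Br53T1, 3.59 in BrT2 and 0 in BrT1. The level of Br53T1 was therefore above that of the virgin mouse v53L. *Olah* was at 89.02 CPM in pBrL-1, 19.5 in pBrL-2, 59.7 in pBr53L and 65.1 in p53L. It was at 19.2 CPM in vBrL and at 0 in vBr53L and v53L. Among tumors it had 2 reads, both in 1 cell of Br53T2. For *Olah* pBrL-2 and vBrL were nearly level, so the lowest pregnant and the highest virgin mouse differed by less than the spread within either stage.

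*Cel* departed from the rest. It was at 238 CPM in v53L, 225 in vBr53L and 34.3 in vBrL, and at 155 in pBrL-1, 128 in pBrL-2, 108.4 in pBr53L and 49.9 in p53L. Virgin and pregnant mice overlapped, and the lowest mouse was a virgin. In tumors *Cel* was at 0.0550 CPM in Br53T2, 0 in Br53T1, 0 in BrT2 and 0.0110 in BrT1, which amounts to 6 reads in 3 of 165 cells.

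**Figure D1:**
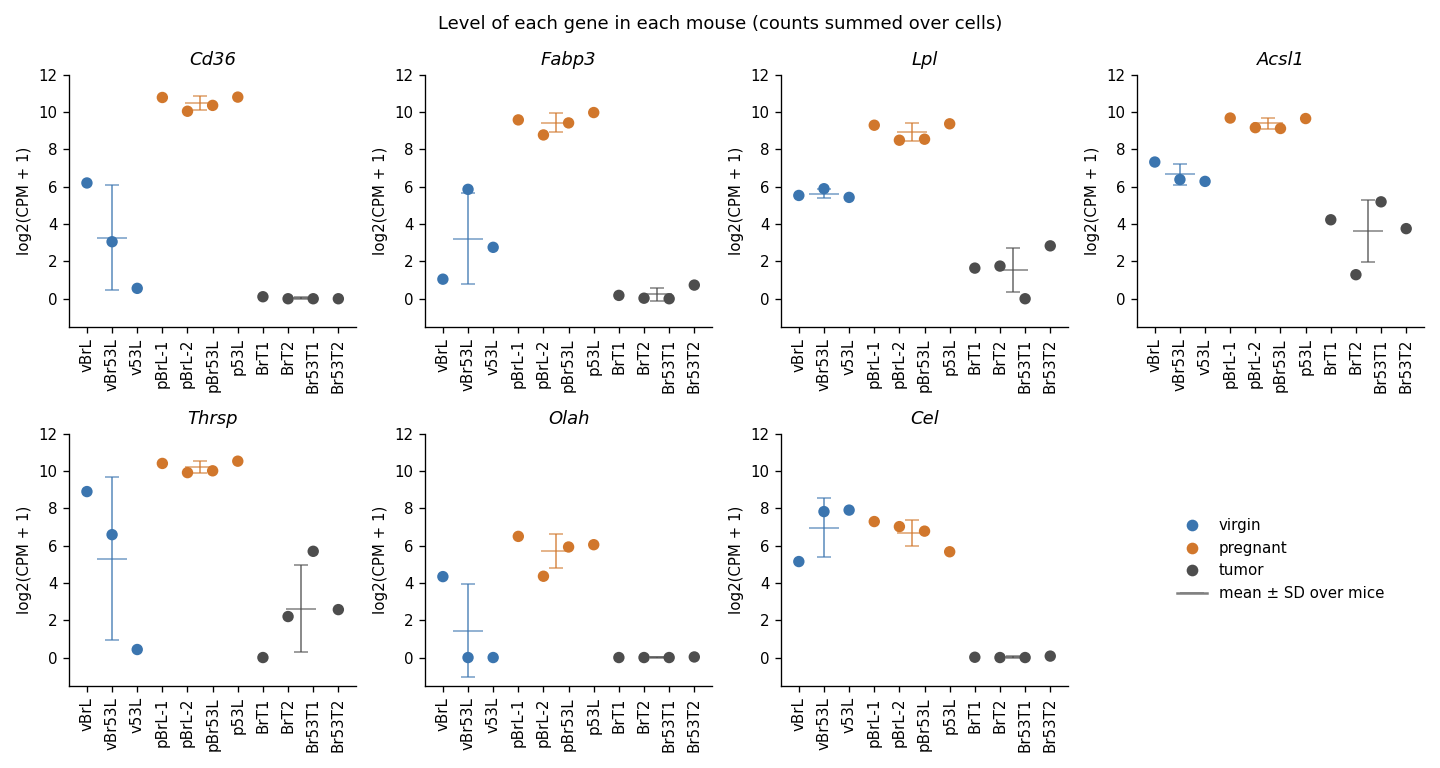
Level of each of the 7 genes in each of the 11 mice as log2(CPM + 1), where points are mice colored by stage and bars are the mean ± SD over the mice of a stage. All panels but that of *Cel* have the 4 pregnant mice on top, virgin and pregnant mice overlap for *Cel*, and all tumors lie near 0 for *Cd36*, *Fabp3*, *Olah* and *Cel*.

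Levels of different genes can be compared only per length of exon. On that scale the mean level over the 4 pregnant mice was 880 ± 285 CPM per kb (SD) for *Fabp3*, 549 ± 113 for *Thrsp* and 412 ± 99.3 for *Cd36*. It was 65.8 ± 13.7 CPM per kb for *Acsl1*, 52.5 ± 21.2 for *Cel*, 48.3 ± 15.4 for *Lpl* and 32.97 ± 16.3 for *Olah*. *Fabp3*, *Thrsp* and *Cd36* kept this order in all 4 mice, and *Cd36* was above *Acsl1* in all 4. *Acsl1* and *Cel*, and *Cel* and *Lpl*, are neighbours whose means differed by less than 1 SD and whose order held in 3 of 4 mice. In virgin mice *Thrsp* (86.7 ± 115 CPM per kb, SD, n = 3) and *Cel* (78.8 ± 54.2) had the highest means, and the SD of *Thrsp* exceeded its mean.

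To see whether the levels came from many cells or a few, the share of cells with at least 1 read was taken after each cell was thinned to 100000 reads. In pregnant mice it averaged 83.1 ± 10.2% (SD, n = 4) for *Cd36*, 82.03 ± 8.84% for *Fabp3*, 92.2 ± 1.65% for *Lpl*, 91.7 ± 2.31% for *Acsl1* and 89.1 ± 5.52% for *Thrsp*. It averaged only 39.1 ± 11.3% for *Olah* and 36.7 ± 7.53% for *Cel*. Read in most cells of pregnancy, the first 5 genes thus differed from *Olah* and *Cel*, which were read in a minority. Without thinning the shares of *Olah* and *Cel* were 54.4 ± 6.81% and 50.9 ± 10.9%, so depth limits both.

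In virgin mice the shares averaged 6.45 ± 6.79% (SD, n = 3) for *Cd36*, 12.97 ± 13.2% for *Fabp3*, 26.9 ± 12.5% for *Lpl*, 38.7 ± 20.99% for *Acsl1*, 22.2 ± 23.8% for *Thrsp* and 2.86 ± 4.95% for *Olah*. *Cel* was read in 30.8 ± 8.0% of virgin cells, close to its share in pregnancy. Single cells gave much of some virgin levels. In vBr53L 1 cell gave 99.8% of the *Cd36* reads and 1 cell 61.7% of the *Thrsp* reads. For *Cel* the top cell gave 36.4% of the reads in vBrL, 40.2% in vBr53L and 39.6% in v53L. In the pregnant mice it gave 38.9% in pBr53L and 34.7% in p53L, but 17.5% in pBrL-1 and 17.8% in pBrL-2. *Acsl1*, in contrast, was read in 22 of 35 cells of vBrL after thinning and in 27 without it, and the top cell gave 15.9% of its reads. In pregnant mice the top cell gave 4.89% to 15.7% of the *Cd36* reads. The median pregnant cell had 1454 CPM of *Cd36* in pBrL-1, 445 in pBrL-2, 1091 in pBr53L and 1469 in p53L, and the lower quartile of pBrL-2 was 1.39 CPM.

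In tumors no cell had a *Cd36*, *Olah* or *Cel* read after thinning. A count of 0 allows a share of up to 6.38% of the 47 cells of BrT1, 8.11% of 37 in BrT2, 10% of 30 in Br53T1 and 5.88% of 51 in Br53T2, taking 3 cells as the limit. The upper ends of the exact 95% intervals of the same counts, as plotted, were 7.55%, 9.49%, 11.6% and 6.98%. The mean tumor share was 1.02 ± 1.18% (SD, n = 4) for *Fabp3*, 7.77 ± 5.36% for *Lpl*, 19.01 ± 12.7% for *Acsl1* and 11.6 ± 14.8% for *Thrsp*. *Thrsp* in tumors was uneven, being read in 10 of 30 Br53T1 cells (33.3%, exact 95% interval 17.3% to 52.8%) and in 0 of 47 BrT1 cells. Without BrT1 the mean tumor share was 0.654 ± 1.13% (SD, n = 3) for *Fabp3*, 7.53 ± 6.53% for *Lpl*, 16.8 ± 14.6% for *Acsl1* and 15.5 ± 15.5% for *Thrsp*. These intervals and limits cover counting error only, and reads without molecular identifiers are not independent molecules.

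**Figure D2:**
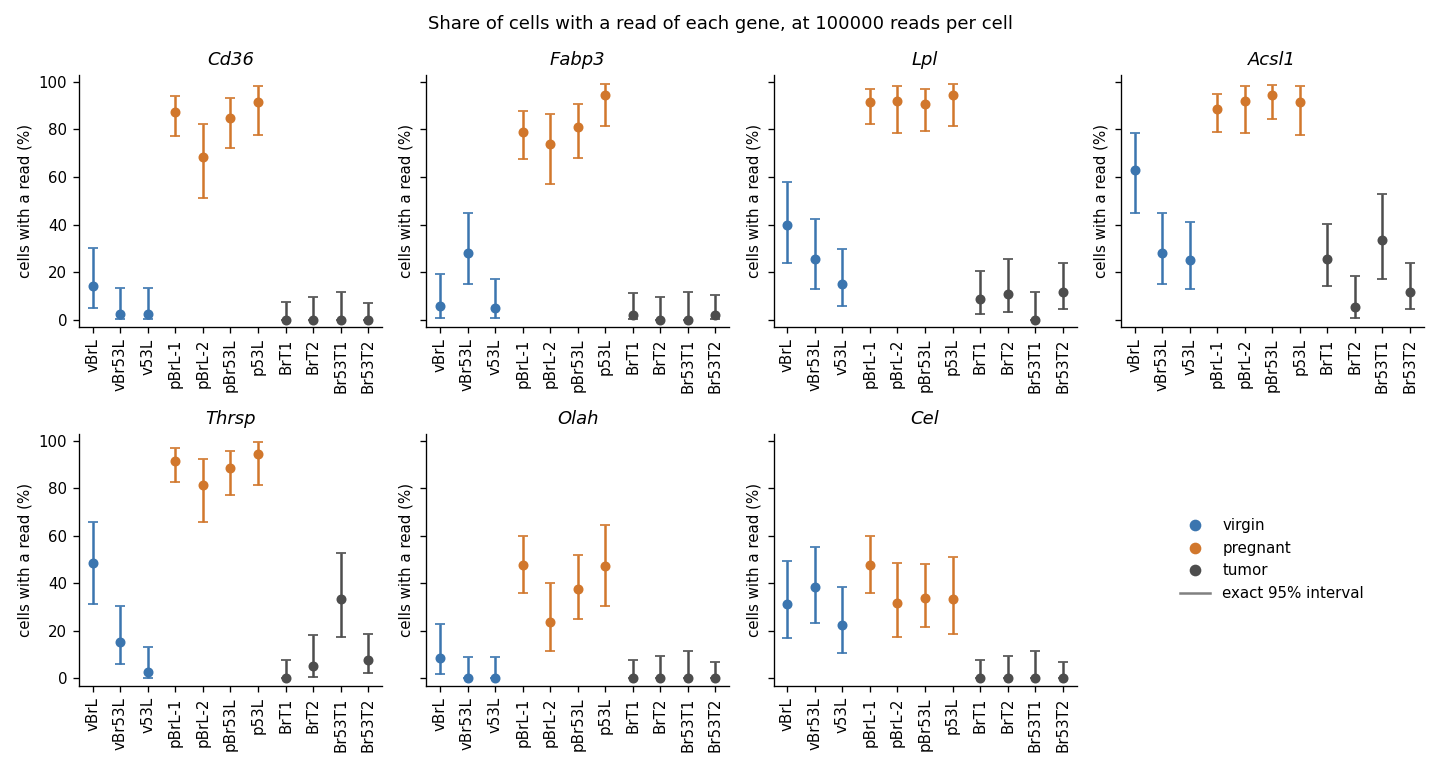
Percentage of the cells of each mouse with at least 1 read of each gene, with every cell thinned to 100000 reads, and exact 95% binomial intervals as bars. For the first 5 genes the 4 pregnant mice lie at 68.4% or more, whereas *Olah* reaches at most 47.9% and *Cel* takes a similar share of virgin and pregnant cells.

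The genes were next counted within single cells. In pregnancy 146 cells held reads of at least 5 of the 7 genes, 39 cells held all 7, and 2 cells held none. The share of cells with at least 5 genes was 73.2% in pBrL-1, 68.4% in pBrL-2, 71.7% in pBr53L and 83.3% in p53L. Among virgin cells 3 of 114 held 5 genes, all from vBrL, and 41 held none. No tumor cell held more than 3 of the genes, and 113 of 165 held none. The combination of 5 or more genes in 1 cell was therefore read in every pregnant mouse, in 1 virgin mouse and in no tumor.

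**Figure D3:**
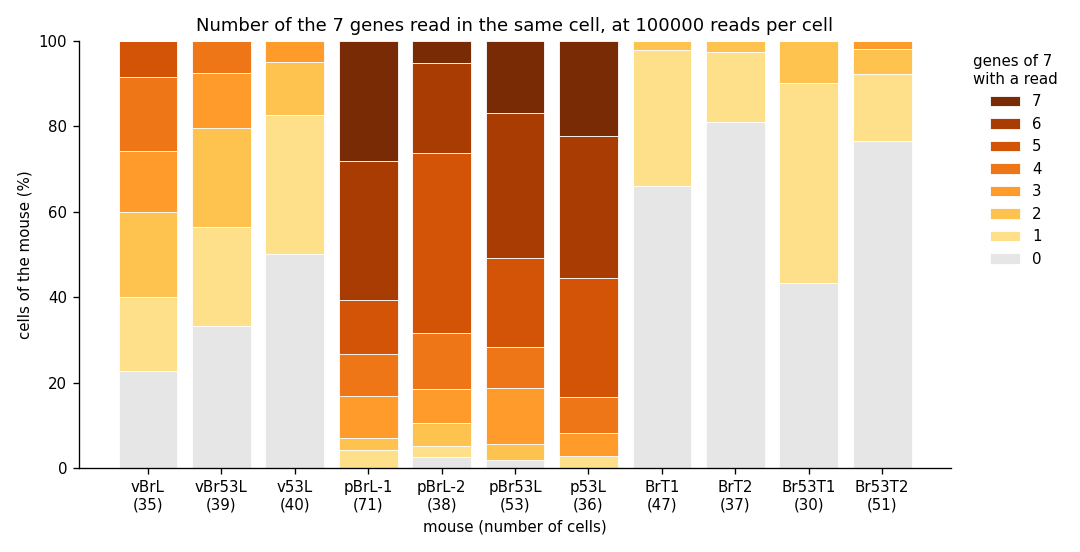
Percentage of the cells of each mouse (number of cells in parentheses) by how many of the 7 genes had a read in the same cell after thinning to 100000 reads. Pregnant mice are filled mainly by cells with 5 to 7 genes, and tumors mainly by cells with 0 or 1.

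To ask how pregnancy alters these genes across genotypes, the 4 pregnant and 3 virgin mice were compared with genotype as a term. *Cd36*, *Fabp3*, *Lpl*, *Acsl1*, *Thrsp* and *Olah* were higher in every pregnant than in every virgin mouse, and *Cel* was not. With TMM-scaled CPM *Olah* overlapped as well, at 19.1 in vBrL and 18.6 in pBrL-2. None of the 7 passed the test over all genes. In edgeR's quasi-likelihood fit the log2 fold change was 6.74 ± 1.52 (SE, adjusted p = 0.261) for *Cd36*, 7.07 ± 1.24 (0.175) for *Fabp3*, 3.42 ± 0.40 (0.0829) for *Lpl* and 2.72 ± 0.36 (0.0983) for *Acsl1*. It was 3.36 ± 1.65 (0.585) for *Thrsp*, 6.29 ± 3.13 (0.591) for *Olah* and -0.40 ± 0.84 (0.925) for *Cel*. Of 12615 genes tested 2 were called (0.0159%), both lower in pregnancy: *Fgfr2* and *Abcg1*, named here after their values were seen. Called higher were 0% of all genes. Mice that did not overlap, higher in pregnancy, made up 6.32% of all genes tested and 6 of the 7 genes here, and 6.68% and 5 of the 7 with TMM-scaled CPM. At an unadjusted p under 0.05, 5.07% of all genes were higher, and 4 of the 7 were: *Cd36*, *Fabp3*, *Lpl* and *Acsl1*. The study had already named *Cd36* and *Fabp3* as high in a cluster of mainly pregnant luminal cells in these data. Its list of luminal genes, which holds all 7, also drew partly on these cells. In the pregnancy comparison nothing is therefore read from the counts or the median of the 7 against those of all genes.

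Both the calls and the sizes depended on the fit. Over 15 alternatives the log2 fold change ran from 5.48 to 9.65 for *Cd36*, 5.15 to 8.42 for *Fabp3*, 3.13 to 3.71 for *Lpl* and 2.41 to 3.15 for *Acsl1*. It ran from 2.15 to 7.59 for *Thrsp*, 3.28 to 15.25 for *Olah* and -1.60 to 0.65 for *Cel*. The same 4 genes were called with DESeq2 and with limma on the mean CPM over cells, where 967 and 40 genes in all were called. Without the low-count filter 6 of the 7 were called, all but *Cel*, among 366 genes in all. Without vBr53L, *Fabp3* was called (log2 8.42, edgeR adjusted p = 0.0433). Taken without the genotype term, *Lpl* (adjusted p = 0.0162) and *Acsl1* (0.0287) were called in edgeR. The median of the 7 log2 fold changes was 3.42, beside 0.12 over all genes tested.

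Chips SC7 and SC9 each held virgin and pregnant cells of 1 genotype, so the stages could be set side by side within a chip. The pregnant level of *Cd36* was 180-fold the virgin level in Br53 on SC7 and 3796-fold in 53 on SC9. The ratios were 11.98 and 175 for *Fabp3*, 6.38 and 15.7 for *Lpl*, 6.73 and 10.4 for *Acsl1*, and 10.8 and 4235 for *Thrsp*. *Olah* had no virgin read on either chip, which against a floor of 3 reads per mouse makes it at least 1354-fold and at least 875-fold higher. *Cel* ran the other way, at 0.482 and 0.210 of the virgin level. *Lpl* and *Acsl1* thus had moderate ratios of similar size on both chips, while the ratios of *Cd36*, *Fabp3* and *Thrsp* varied with the small virgin level. Within a single chip there is no test, with 1 mouse per stage. With chip in place of genotype the fit rested on 1 residual degree of freedom and called 5 of the 7 genes, of 42 called in all. It took all 7 mice, but vBrL, pBrL-1 and pBrL-2 were each the only luminal mouse on their chip. Its difference between the stages therefore came from the pairs of mice on SC7 and SC9 alone. In edgeR the adjusted p was then 0.0109 for *Cd36*, 0.0368 for *Fabp3*, 0.0283 for *Lpl*, 0.0233 for *Acsl1* and 0.0119 for *Olah*, and it was 0.279 for *Thrsp* and 0.558 for *Cel*.

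Whether the difference between the stages itself varied with genotype was tested by a stage by genotype term, added after seeing the data. This fit also rested on 1 residual degree of freedom, which comes from pBrL-1 and pBrL-2, the only pair of mice of 1 stage and genotype. Every other arm was 1 mouse, so the test sets single mice against the spread of that pair, and a difference between genotypes cannot be told apart from one between mice or chips. In edgeR 44 of 12615 genes were called (0.349%), with 2244 at an unadjusted p under 0.05, and the 44 included *Thrsp* (adjusted p = 0.0144) and *Cd36* (0.0252). The log2 ratio of pregnant to virgin CPM of *Thrsp* was 1.29 in Br, 3.44 in Br53 and 12.05 in 53, and that of *Cd36* was 4.28, 7.49 and 11.89. In both genes the virgin mouse of 53, v53L, had the lowest level, with all reads in 1 cell (14 of *Thrsp* and 19 of *Cd36*). The adjusted p was 0.0692 for *Fabp3*, 0.0867 for *Olah* and *Cel*, 0.332 for *Acsl1* and 0.443 for *Lpl*. Which genes were called depended on the 53 mice. Without them, again with 1 residual degree of freedom, edgeR called 0.814% of 13270 genes, with 1877 at an unadjusted p under 0.05. *Thrsp* was not among them (adjusted p = 0.0733), while *Cd36* (0.0257), *Fabp3* (0.00474) and *Olah* (0.0215) were. The log2 difference of Br53 minus Br was then 3.25 for *Cd36* and -5.52 for *Fabp3*, and that of *Olah* depends on the prior count, since vBr53L had no read.

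Markers of other cells that use these genes were examined in the same mice. The 8 adipocyte markers, which matter because fat cells express *Cd36*, *Lpl*, *Acsl1* and *Thrsp*, summed to at most 0.0147 CPM in virgin, 8.21 in pregnant and 10.0 in tumor mice. *Adipoq* and *Cfd* were at 0 in all 11 mice, and *Fabp4* was the largest component in 3 pregnant mice, at 2.75 of 3.32 CPM in pBrL-1, 8.16 of 8.21 in pBr53L and 1.72 of 1.75 in p53L. It gave 0.0130 of 0.0389 CPM in pBrL-2. *Lep* gave the whole virgin sum and *Cidec* 0.419 of the 0.437 CPM in Br53T1. The 6 endothelial markers summed to 0.0294 to 4.34 CPM in virgin, 0.613 to 11.9 in pregnant and 0.0547 to 13.7 in tumor mice. The 7 immune markers summed to 9.72 to 73.6 CPM in virgin, 8.29 to 273 in pregnant and 1.34 to 54.8 in tumor mice, the top value being pBr53L with *Lyz2* at 212 CPM. *Dcn*, 1 of 5 fibroblast markers, was at 176 to 711 CPM in virgin mice and at most 25.4 in pregnant mice. The other fibroblast markers were near 0 in both stages. In virgin mice *Pdgfra* was at most at 0.606 CPM, *Col1a1* at 0.0744, *Col1a2* at 0.0577 and *Lum* at 0. In pregnant mice they were at most at 0.0596, 0.139, 0.0397 and 0 CPM. The 8 hormone-sensing luminal genes summed to 220 to 376 CPM in pregnant mice against 974 to 5579 in virgin mice, and the 6 basal markers to 96.3 to 414 against 0 to 108.3. The hormone-sensing sums did not overlap between the stages, nor did the adipocyte sums and *Dcn*, while the endothelial, immune and basal sums did. Their part in the result was not tested.

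Other genes of milk fat were taken from lists. Among 16 further genes of fatty acid uptake and activation 14 were tested, none was called, and 6 were higher in all pregnant than all virgin mice, against 6.32% of all genes tested (5.58% were lower), the background for the counts of the lists that follow. Among them *Fabp4* and the endothelial lipase *Lipg* were at 0 in every virgin mouse, with *Lipg* at most at 1.51 CPM in pregnancy. The others included the transporters *Slc27a4* (log2 2.51 ± 1.00) and *Slc27a1* (0.99 ± 0.31) and the lipase inhibitor *Angptl4* (1.85 ± 0.36), with edgeR adjusted p of 0.482, 0.423 and 0.216. Of 14 genes of fatty acid synthesis and desaturation none was called and 4 did not overlap, all higher. They included *Acly* (1.66 ± 0.31), which makes cytosolic acetyl-CoA, fatty acid synthase *Fasn* (1.56 ± 0.46) and the elongase *Elovl5* (1.02 ± 0.33), with adjusted p of 0.216, 0.409 and 0.451. Of 13 tested genes of triglyceride and the milk fat globule none was called, 5 lay higher and 1 lower without overlap. The lipid droplet coat *Plin2* was at 2.40 ± 0.41, the phosphatidate phosphatase *Lpin1* at 1.68 ± 0.37 and the acyltransferase *Gpat4* at 1.65 ± 0.37, with adjusted p of 0.173, 0.248 and 0.261.

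The medians of these lists were 0.79, 0.94 and 1.23 on the log2 scale, against 0.12 over all genes and 3.42 for the 7. Among 16 tested lipid regulators 1 lay higher without overlap, a share near the 6.32% of all genes and so no result about the list. It was the sterol sensor *Scap* (1.40 ± 0.55, adjusted p = 0.481). Among 9 oxidation genes 1 did, *Cpt2* (1.95 ± 0.73, adjusted p = 0.479). The medians were 1.28 and 0.19. Of 7 milk protein genes 5 lay higher without overlap and none was called. *Glycam1* was at 9.67 ± 1.89, *Wap* at 5.61 ± 0.96 and *Csn1s2a* at 2.49 ± 0.38, with adjusted p of 0.216, 0.173 and 0.139. Of 8 hormone-sensing genes 7 were lower in every pregnant mouse, against 5.58% of all genes, and none was called, among them *Cited1* (-6.54 ± 1.84), *Prom1* (-6.52 ± 1.48) and *Areg* (-4.84 ± 0.76), with adjusted p of 0.380, 0.261 and 0.139. In log2 fold change *Fabp3* and *Cd36* were thus between *Glycam1* and *Wap*. No difference between lists was tested. None of the lists of luminal, basal, adipocyte, endothelial, immune and fibroblast markers had a called gene. *Fabp4* was the 1 adipocyte marker that passed the filter. *Fabp4*, at 0 in every virgin mouse, was higher in every pregnant mouse (10.93 ± 3.64, adjusted p = 0.470), a fitted value that depends on the prior count. Also without overlap lay *Krt18* (-0.51 ± 0.26, adjusted p = 0.593), *Krt14* (2.42 ± 1.61, 0.700) and *Dcn* (-7.77 ± 1.94, 0.314).

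The tumors were compared with the 5 luminal mice without *Brca1* to find which genes separate them. All 7 genes had a lower mean in tumors, and *Cd36*, *Fabp3* and *Cel* fell by the test over all genes. In edgeR's quasi-likelihood fit the log2 fold change was -15.25 ± 2.18 (SE, adjusted p = 0.0177) for *Cd36*, -11.01 ± 2.11 (0.0477) for *Fabp3* and -12.76 ± 1.10 (0.00132) for *Cel*. The other 4 did not pass, at -6.92 ± 1.47 (0.0622) for *Lpl*, -4.88 ± 0.96 (0.0517) for *Acsl1*, -5.89 ± 1.70 (0.155) for *Thrsp* and -12.32 ± 2.39 (0.0501) for *Olah*. *Cel* had the smallest p of the 12978 genes tested. Of those genes 0.216% were called lower, and 3 of the 7. Since the 7 stand in the study's list of genes higher in luminal than in tumor cells, nothing is read from their counts against those of all genes here. Every tumor lay below every luminal mouse without *Brca1* for 6 of the 7 genes and for 2.51% of all genes. *Olah* was the exception because vBr53L had no read of it. At an unadjusted p under 0.05, all 7 were lower, as were 5.8% of all genes. The median of the 7 log2 fold changes was -11.01, beside 0.06 over all genes.

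**Figure D4:**
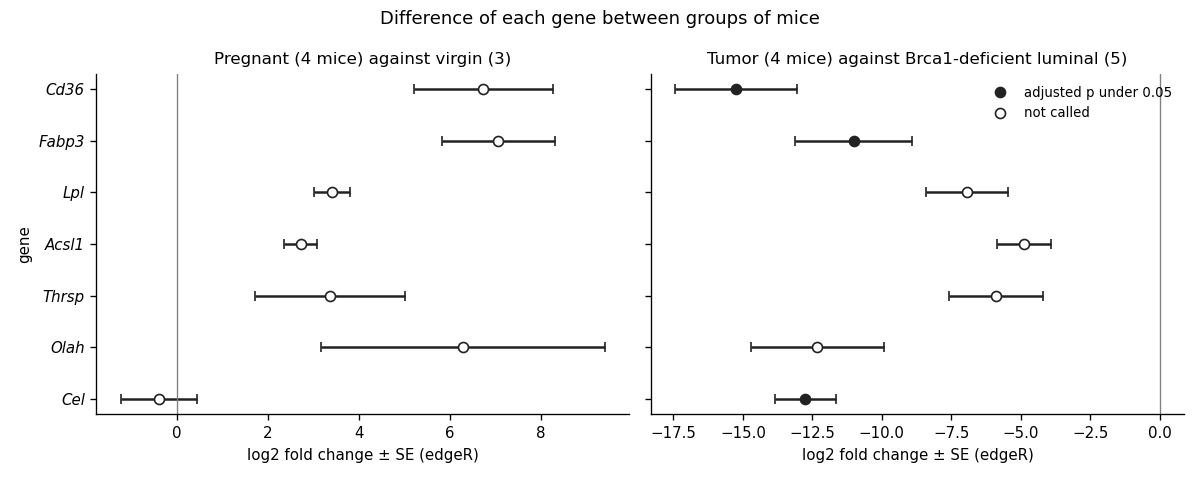
Log2 fold change ± SE of the 7 genes from edgeR in the pregnancy comparison (left) and the tumor comparison (right), on separate horizontal axes, with filled points for an adjusted p under 0.05. No point is filled on the left, and *Cd36*, *Fabp3* and *Cel* are filled on the right, where all 7 lie below 0.

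Fitted fold changes of genes with so few tumor reads depend on the prior count of the fit. Counted over all cells, the luminal level without *Brca1* exceeded the tumor level 40180-fold for *Cd36* (counting interval 19501 to 99937, from 7 tumor reads) and 6251-fold for *Cel* (2872 to 17033, from 6). The ratio was 6362-fold for *Olah* (1761 to 52533, from 2 reads) and 1778-fold for *Fabp3* (1414 to 2269, from 73). It was 111-fold for *Lpl* (104.1 to 119), 72.7-fold for *Thrsp* (70.3 to 75.2) and 29.5-fold for *Acsl1* (28.7 to 30.4), with 867, 3411 and 4773 tumor reads. Single tumors gave most reads of 2 genes. Of the *Fabp3* reads 60 came from 1 cell of Br53T2, and of the *Thrsp* reads 2784 came from Br53T1. In edgeR the log2 fold change was -12.85 for *Fabp3* without Br53T2 and -8.20 for *Thrsp* without Br53T1. *Acsl1* and *Lpl* were read in 46 and 39 of the 165 tumor cells. Without BrT1 *Cd36* had no tumor read and was at least 52115-fold higher in luminal mice by the lower end of the counting interval (64081-fold against a floor of 3 reads over the 3 tumors together). The ratio was then 1455-fold for *Fabp3*, 97.7-fold for *Lpl*, 30.4-fold for *Acsl1*, 49.7-fold for *Thrsp*, 4349-fold for *Olah* (1204 to 35907, from 2 reads) and 5127-fold for *Cel*.

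The luminal arm held 3 pregnant and 2 virgin mice. Against the 2 virgin mice alone none of the 7 was called, and in edgeR the log2 fold change of *Cel* was -12.82 (adjusted p = 0.189) and that of *Cd36* -10.95 (0.312). That of *Fabp3* was -7.36, of *Lpl* -4.46, of *Acsl1* -3.05 and of *Thrsp* -4.45, each smaller in size than in the full fit. No gene of the whole table was called there, while 1278 had an unadjusted p under 0.05, and the arm was smaller than in the full fit. Against the 3 pregnant mice alone *Cd36*, *Fabp3*, *Olah* and *Cel* were called, among 44 genes in all, with *Cel* at -12.77. The size for *Cel* was thus nearly the same against either stage. Without BrT1, the tumor with low luminal markers, *Cel* alone was called (-12.52, adjusted p = 0.00476), and *Cd36* was at -19.05 (0.0549). Without pBrL-1, too, *Cel* alone was called (adjusted p = 0.00919). DESeq2 called all 7, and 814 of the 12978 genes. With all 7 luminal mice edgeR called 6, *Thrsp* being the exception, and 213 of 13234 genes.

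Chip SC6 held the tumor Br53T2 and the pregnant mouse pBrL-2. There *Cd36* was at least 31994-fold lower in the tumor, which had no read of it, with the floor of 3 reads. *Fabp3* was 663-fold, *Lpl* 58.6-fold, *Acsl1* 45.9-fold, *Thrsp* 195-fold and *Cel* 2333-fold lower, the last from 5 tumor reads. All these ratios compare 1 mouse with 1 mouse. The 6 luminal markers summed to 6135 CPM in Br53T2 and 7969 in pBrL-2. *Epcam* was at 611 CPM in the tumor against 1341, *Krt18* at 2453 against 3297, *Krt8* at 880 against 1148, *Krt19* at 818 against 889 and *Cdh1* at 782 against 738. Basal markers summed to 3610 CPM in Br53T2 and 204 in pBrL-2.

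Of the 3 related lipid lists, 2 had a single called gene each. Of 13 tested genes of uptake and activation none was called in edgeR, and 1 lay lower without overlap, beside 2.51% of all genes, the acyl-CoA binding protein *Dbi* (-1.78 ± 0.39, adjusted p = 0.0652). *Acsl4*, a ligase of the same family as *Acsl1*, was at 501 CPM in Br53T2, 1241 in Br53T1, 729 in BrT2 and 258 in BrT1, and at 151 to 633 CPM in luminal mice. The binding protein *Fabp5* was at 34.4 to 485 CPM in tumors and 18.3 to 120 in luminal mice. These 2 were named after their values were seen. Of 14 synthesis and desaturation genes the desaturase *Fads1* fell (-3.29 ± 0.41, adjusted p = 0.0114), and *Mid1ip1*, the paralog of *Thrsp*, was at 3.98 ± 1.25 (0.185) and the desaturase *Scd2* at 2.71 ± 0.62 (0.0709), both higher in every tumor, as were 5.01% of all genes. In the same list 4 genes were lower in every tumor: *Fads1*, the desaturases *Fads2* (-2.51 ± 0.59, adjusted p = 0.0803) and *Scd1* (-1.61 ± 0.53, 0.1999), and *Fasn* (-1.88 ± 0.46, 0.0972), the last 3 named after their values were seen. Of 13 tested triglyceride and globule genes *Lpin1* fell (-4.13 ± 0.69, adjusted p = 0.0331), while *Btn1a1*, a protein of the globule membrane, was at -8.69 ± 1.92 (0.0652) and *Plin2* at -2.86 ± 0.62 (0.0648).

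Without BrT1 *Fads1* was called (-3.47, edgeR adjusted p = 0.0249) and *Lpin1* was not (-3.94, 0.0717).

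The medians of these 3 lists were 0.30, -0.61 and -0.42 on the log2 scale, against -11.01 for the 7 genes. Since the 7 stand in the study's list of genes higher in luminal than in tumor cells, nothing is read from this difference. None of 16 tested lipid regulators and none of 9 oxidation genes was called in edgeR, with medians of 0.09 and -0.93. Of the oxidation genes *Hadhb* lay lower without overlap (-1.503 ± 0.50, adjusted p = 0.203). Of 7 milk protein genes *Glycam1* fell (-16.52 ± 2.76, adjusted p = 0.0333) and 6 lay lower without overlap, among them *Csn1s2a* (-7.83 ± 2.44, 0.184) and *Csn2* (-7.33 ± 2.58, 0.233). Their median was -7.33. Without BrT1 no milk protein gene was called in edgeR, with *Glycam1* at -16.04 (adjusted p = 0.0717) and the median at -6.92. The luminal list had no called gene, with *Krt8* at -1.25 ± 0.50 (0.298) and *Krt18* at -1.16 ± 0.55 (0.380), and the hormone-sensing, basal, endothelial, immune and fibroblast lists had none either. The median log2 fold change was 6.80 over the 3 tested fibroblast markers, 2 of them higher at an unadjusted p under 0.05, and 2.72 over the 6 basal markers. It was 0.18 for the hormone-sensing, -1.18 for the luminal and -0.76 for the immune list. Without BrT1 these medians were 3.85, 3.13, 0.56, -0.80 and -0.85 in the same order. The part of these cells in the result was not tested. No adipocyte marker passed the low-count filter.

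The luminal mice without *Brca1* were also compared with the 53 mice, with stage as a term. None of the 7 was called, nor was any of the 13709 genes (0%), while edgeR gave 818 genes with an unadjusted p under 0.05 and DESeq2 called 518, none of them among the 7. The log2 fold change ranged from -0.35 ± 0.35 for *Lpl* (edgeR adjusted p = 0.841) to 1.13 ± 2.30 for *Olah* (0.930). With only v53L and p53L on 1 side, the standard errors of *Cd36* (0.93 ± 1.37), *Thrsp* (0.96 ± 1.64) and *Olah* leave room for differences of several fold. The 53 mice were both on SC9, so genotype and chip cannot be told apart. In virgin mice *Thrsp* and *Cd36* were lowest in v53L and in pregnant mice highest in p53L. Without p53L *Thrsp* was called (log2 9.56, adjusted p = 0.00902), where v53L was the only 53 mouse left and its spread was taken from the others.

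Between the 2 Br53 and the 2 Br tumors only *Lpl*, *Acsl1* and *Thrsp* passed the low-count filter. In edgeR the differences were 0.36 ± 2.83 for *Lpl*, 1.33 ± 1.48 for *Acsl1* and 3.79 ± 2.76 for *Thrsp*, each with an adjusted p of 1.000. *Thrsp* was higher in both Br53 tumors without overlap, as were 19% of all genes. No gene was called of 13477 (0%), with 537 at an unadjusted p under 0.05. Without BrT1 edgeR gave 0.20 for *Lpl*, 3.89 for *Acsl1* and 2.79 for *Thrsp*, with adjusted p of 0.998, 0.761 and 0.926, the lone Br tumor being assumed to vary like the others. *Thrsp* was at 14.11 without BrT2 (adjusted p = 0.0677), where BrT1, with no read of it, was the lone Br tumor. It was at 1.27 without Br53T1 and 8.98 with 30 cells per mouse. DESeq2 called 315 genes but none of the 3.

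Co-expression was examined over the cells of each pregnant mouse, so that differences between mice and chips do not enter. The values are Spearman correlations over cells, given as a description, and depth was not removed from them. The 21 pairs of the 7 genes had a median mean rho of 0.41 over the 4 mice, from 0.21 to 0.56, and 19 pairs were positive in all 4 mice. *Cd36* and *Fabp3* gave the highest, 0.56, with 0.59 in pBrL-1, 0.62 in pBrL-2, 0.67 in pBr53L and 0.37 in p53L. *Fabp3* and *Thrsp* followed with 0.56, from 0.46 to 0.70, and *Fabp3* and *Acsl1* with 0.52, from 0.43 to 0.70. *Fabp3* had the highest mean with the other 6 genes, 0.50, and *Cel* the lowest, 0.26. The 15 pairs without *Cel* had a median of 0.44 and the 6 pairs with it 0.24. The 2 pairs that were not positive in every mouse were *Olah* with *Thrsp* and *Olah* with *Cel*, both slightly below 0 in pBrL-2, the mouse with the lowest *Olah* level. The rho of each gene with the total reads of the cell ran from 0.15 for *Olah* to 0.40 for *Cd36* as a mean over mice, with -0.20 for *Olah* in 1 mouse, and after thinning all cells to 100000 reads the median of the 21 pairs was 0.36.

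The genes whose pattern over pregnant cells was most like the 7 were led by milk protein genes. Among 5960 genes compared, the highest mean rho with the 7 was 0.51 for *Csn2* and 0.50 for *Csn1s2a*, followed by *Csn1s1* (0.47), *Csn3* (0.46), *Glycam1* (0.45), *B4galt1* (0.44), *Lao1* (0.43), *Dab2* (0.42), *Spp1* (0.40) and *Trf* (0.40). *B4galt1* is the galactosyltransferase of lactose synthase. The median over all genes compared was 0.03. *Fabp3* with *Csn2* reached 0.73, from 0.67 to 0.83 over the 4 mice, which was above any pair within the 7. The genes compared leave out the 7 themselves. Among them *Csn1s2a* was the closest to *Cd36* (0.61), *Lpl* (0.50) and *Acsl1* (0.48), and *Csn2* to *Fabp3* and *Thrsp* (0.60). Within the 7, *Fabp3* was closer to *Acsl1*, at 0.52. Outside the 7, *Dab2* was closest to *Olah* (0.46), with *Fabp3* at 0.51 within them, and *Spp1*, a secreted phosphoprotein, was closest to *Cel* (0.44). *Cel* was thus the one gene of the set without a casein among its 3 closest genes outside the 7, which were *Spp1*, *Dld* (0.37) and *B4galt1* (0.37). Within the 7, *Fabp3* reached 0.38 with *Cel*.

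Values with lipid genes of other steps varied. *Lpin1* reached a mean rho of 0.48 with *Thrsp*, 0.45 with *Acsl1* and 0.42 with *Fabp3*, above the median of the pairs within the 7. With the other genes it was below that median, at 0.33 for *Cd36*, 0.29 for *Lpl*, 0.28 for *Olah* and 0.23 for *Cel*. With *Cd36* the mean rho was 0.41 for *Plin2* and 0.15 for *Fasn*, and with *Fabp3* it was 0.47 and 0.37. With the alveolar transcription factor *Elf5* it was 0.22 for *Cd36*, 0.40 for *Fabp3* and 0.39 for *Thrsp*. With *Stat5a*, a mediator of prolactin signalling, it was at most 0.19 (*Thrsp*), and with the prolactin receptor *Prlr* at most 0.17 (*Fabp3*).

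**Figure D5:**
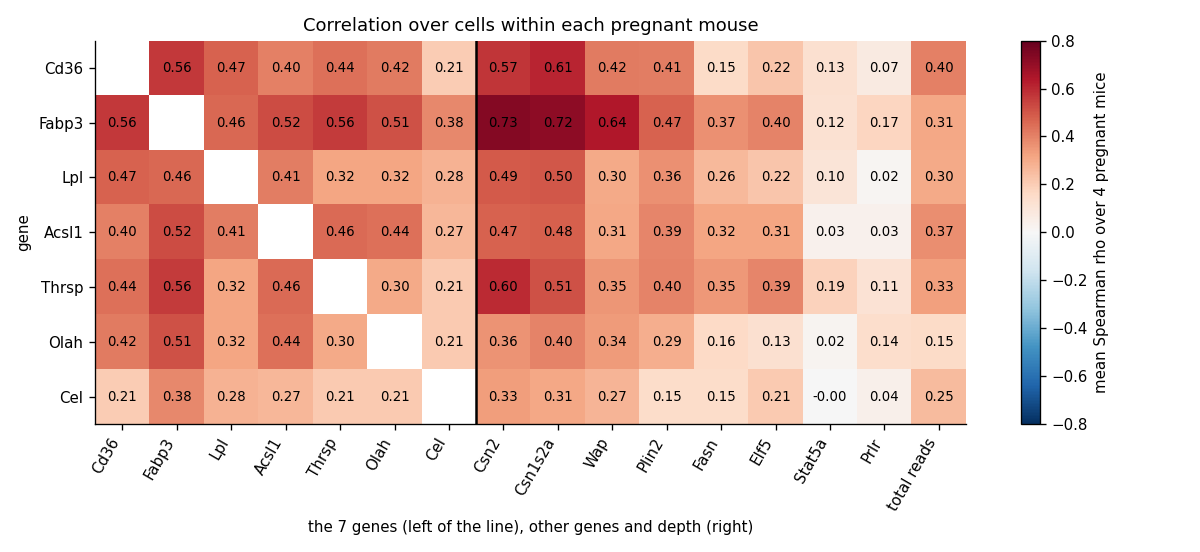
Mean Spearman rho over the cells within each of the 4 pregnant mice, for pairs of the 7 genes (left of the line) and for each of them with other genes and the total reads of a cell (right), with colors from blue (negative) to red (positive). The row of *Fabp3* holds the highest values, up to 0.73 with *Csn2*, and the row and column of *Cel* the lowest among the 7.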

How the data were processed

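Single cells were isolated on Fluidigm C1 chips and full-length cDNA was sequenced. According to the submitters' processing notes the authors used sickle, Trim Galore 0.4.1, STAR 2.5.3a and Subread 1.5.3 with mm10, and they deposited raw read counts per gene and cell. The annotation, the use of strand and the filters on cells before deposit are not given in the sources used here. Doublets had been looked for by microscope and were not called again.

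Counts were summed over the cells of a mouse, since cells are not replicates. CPM were taken from these sums. Comparisons used the quasi-likelihood test of edgeR 4.0.16 (R 4.3.3) with filterByExpr, TMM factors and Benjamini-Hochberg adjustment at 0.05 over all genes, with SE = |log2 fold change| / sqrt(F). DESeq2 1.42.0 and limma 3.58.1 (pseudocount 1 CPM) were alternatives. P-values measure the spread between single mice of different genotypes and chips. Shares used cells thinned to 100000 reads, with exact binomial 95% intervals. Correlations were Spearman's on log2(CPM + 1) within a mouse. Genes compared with the 7 had at least 10 CPM in every pregnant mouse and reads in at least 20% of pregnant cells. GENCODE vM21 matched 20919 of 21004 symbols, and RefSeq promoters matched 6 of the 7 genes (*Lpl* unmatched). Results without BrT1 beyond the tests of the 7 genes were added after seeing the data. Scripts were tested on simulated data.

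The 7 genes and the lists were chosen with earlier results of these data known. In the tumor and pregnancy comparisons up to 4 called genes per list were named and, with under 2 called, up to 3 without overlap between groups, if the higher group averaged 10 CPM or more, both by the size of the log2 fold change. Gene models were not named.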

Additional observations from a re-analysis of the deposited data

Results flagged for a closer look

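In the tumors, the highest mouse stood apart from the other 3 for 3 of the genes, by the gap to the nearest mouse over the whole range (Dixon's ratio). The ratio was 1 for *Cd36*, at 0.0773 CPM in BrT1 against 0 in the others, and rested on 7 reads of 1 cell. It was also 1 for *Olah*, at 0.0220 CPM in Br53T2 against 0, from 2 reads. It was 0.903 for *Thrsp*, at 50.7 CPM in Br53T1 against 4.93 in the next tumor. In all 28 groups of values were examined, of which chance sets about 5% apart. That rate does not apply to *Cd36* and *Olah*, where the other 3 tumors were at 0 and any single read gives a ratio of 1.

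The direction of *Cel* between pregnant and virgin mice differed between the genotypes. In Br the log2 ratio of CPM was 2.05, from 34.3 in the virgin mouse to 141.8 over both pregnant mice, each of which lay above it. It was -1.05 in Br53 (225 to 108.4 CPM) and -2.25 in 53 (238 to 49.9 CPM). In a stage by genotype fit with 1 residual degree of freedom, edgeR gave *Cel* an adjusted p of 0.0867 (unadjusted 0.00079), so this difference did not pass over all genes. *Thrsp* (adjusted p = 0.0144) and *Cd36* (0.0252) were under the threshold in that fit, and without the 53 mice *Thrsp* was not (0.0733) and *Cd36* was (0.0257). Both had higher levels in every pregnant than in every virgin mouse, with log2 ratios of 1.29 in Br, 3.44 in Br53 and 12.05 in 53 for *Thrsp*, and of 4.28, 7.49 and 11.89 for *Cd36*. All reads of both genes in v53L came from 1 cell. The only spread was that between pBrL-1 and pBrL-2, every other arm being 1 mouse, so genotype, mouse and chip cannot be told apart.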

How the results depend on the processing

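By replicate number, no paired analysis was possible because the numbers in the sample names count cells on a chip and pair no mice. Pairing by chip was possible on SC7 and SC9, which each held a virgin and a pregnant mouse of 1 genotype. The fit with chip as a term took its difference between the stages from those pairs alone. It rested on 1 residual degree of freedom and stands among the alternatives. Limits are the 1 mouse in most groups, chips that, except SC6, hold 1 genotype each, and reads without molecular identifiers. The cause of the changes below was not tested.

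In the tumor comparison, where 3 of the 7 genes were called, DESeq2 called 7, while limma, no low-count filter and all 7 luminal mice each called 6 and the virgin arm 0, and leaving out 1 mouse gave 1 to 4. Of all genes 79 were called, and 814 with DESeq2, 352 with limma, 129 without the filter, 213 with all 7 luminal mice, 42 with 30 cells per mouse, 44 with the pregnant arm, 0 with the virgin arm (1278 at an unadjusted p under 0.05), and 11 to 94 without 1 mouse. Every log2 fold change of the 7 stayed below 0 in every fit that tested it. *Olah* could not be fitted in the virgin arm or in some fits without a mouse.

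In the pregnancy comparison none of the 7 was called in edgeR, against 4 with DESeq2, 4 with limma, 6 without the filter, 5 with chip in place of genotype, 2 without the genotype term, and 0 to 1 without 1 mouse (1 without vBr53L). Of all genes 2 were called, and 967, 40, 366, 42 and 17 in those same 5 fits, 1 with 30 cells per mouse and 0 to 4 without 1 mouse. *Cel*, at -0.40, turned to 0.10 without vBr53L, 0.65 without v53L, 0.10 without pBr53L and 0.65 without p53L, and ran from -1.60 to 0.65 over single mice left out. The other 6 stayed above 0. With TMM-scaled CPM, an alternative chosen after seeing the data, 5 of the 7 were higher without overlap, against 6.

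Without *Brca1* against 53, none of the 7 was called and 1 was without p53L, the range over single mice being 0 to 1. Of all genes 0 were called, 518 with DESeq2, 10 without the filter and 0 to 127 without 1 mouse. Over single mice left out the log2 fold changes ran from -0.59 to 6.28 (*Cd36*), -1.57 to 2.25 (*Fabp3*), -0.76 to 0.20 (*Lpl*), -0.53 to 0.54 (*Acsl1*), -0.62 to 9.56 (*Thrsp*), -0.42 to 12.53 (*Olah*) and -0.97 to 1.17 (*Cel*). They turned to -0.59 (*Cd36*), -0.89 (*Fabp3*), -0.62 (*Thrsp*), -0.42 (*Olah*) and 1.17 (*Cel*) without v53L, to -0.30 (*Cd36*), -0.59 (*Fabp3*), -0.13 (*Thrsp*) and -0.0046 (*Olah*) without the stage term, and to 0.20 (*Lpl*) and 0.54 (*Acsl1*) without p53L. They turned to -1.57 (*Fabp3*) and 0.012 (*Acsl1*) without vBr53L, -0.38 (*Olah*) and 0.63 (*Cel*) without vBrL, 0.031 (*Acsl1*) without pBrL-2, 0.012 (*Acsl1*) without pBr53L, 0.14 (*Acsl1*) and 0.29 (*Cel*) with limma, and for *Cel* to 0.013 without the filter, 0.0040 with cells of at least 2000 genes and 1.17 with 30 cells per mouse.

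Between tumors, of all genes 0 were called, 315 with DESeq2, 295 without the filter and 0 to 228 without 1 mouse. *Lpl* turned to -0.35 with limma and ran from -10.24 (without Br53T2) to 1.35 over single mice left out, while *Acsl1* ran from 0.37 to 3.89 over all alternatives and *Thrsp* from 1.27 (without Br53T1) to 14.11 (without BrT2). The share of pregnant cells with a read, averaged over the 7 genes, was 73.4%, 81.8% without thinning and 67.9% when 3 reads were required.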

Other observations

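In the virgin mice the level of the alveolar factor *Elf5* was 5.90 CPM in v53L, 36.7 in vBrL and 170 in vBr53L. In the pregnant mice it was 1063 CPM in pBrL-1, 808 in pBrL-2, 456 in pBr53L and 135 in p53L. The order of the pregnant mice for *Elf5* was not that of *Cd36*, *Fabp3* or *Thrsp*, for which p53L was the highest.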
